A study of Mus musculus with 12 samples.

Results

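Gja1, Cdh2, Cav1, Jup and F11r encode proteins with which neighbouring cells touch and couple, or, for Cav1, which shape the cell membrane. The 5 genes were taken as all probes whose single gene symbol in the array's annotation was 1 of these names, which gave 13 of 28704 probes and 5 of 10225 named genes. Cdh2 had 5 probes, Cav1 and F11r had 3 each, and Gja1 and Jup had 1 each. They were measured in MC3T3-E1, an established osteoblast-like line derived from the skull bone of newborn mice. The 6 shear samples came from confluent monolayers on glass slides that were exposed to pulsatile flow in a parallel plate chamber. The flow lasted 5 h at 1 Hz, with a mean stress of 5 dyn per square centimetre and medium that held 1% serum. The 6 control samples were kept static in the same set-up, also in medium with 1% serum. All cells had been grown before that in medium with 5% serum. The labels do not say that samples came from separate cultures, so the spread between them may be technical. The comparison asked how the transcripts of these 5 genes differed between cells under flow and static cells.

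Gap junctions are channels that join the cytoplasm of adjacent cells, and connexin proteins form them. In osteoblasts and osteocytes the main connexin is the product of Gja1. Cadherins such as that of Cdh2 hold cells together at adherens junctions, where catenins link them to actin. Jup encodes plakoglobin, a catenin of adherens junctions and desmosomes, and F11r encodes a junctional adhesion molecule of tight junctions. Cav1 encodes caveolin, the coat protein of caveolae, which are small pits of the cell membrane. MC3T3-E1 cells are a single clonal line, so they stand for osteoblast-like cells in culture and not for bone tissue.

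The start regions of the genes are shown because flow-regulated promoters have been described as carrying the shear stress response element (GAGACC) and the AP-1 site (TGANTCA). Windows of 250 bases before to 50 after an annotated start were taken from RefSeq (build GRCm38.p6) for 4 of the 5 genes. Capitals mark matches, on either strand, to these motifs and to the Sp1 GC box (GGGCGG), the cyclic AMP response element (TGACGTCA) and the TEAD site (GGAATG). The windows are Gja1 at chr10:56377050-56377349 (plus strand), Cav1 at chr6:17306085-17306384 (plus strand), Jup at chr11:100397741-100398040 (minus strand) and F11r at chr1:171437311-171437610 (plus strand).
Gja1: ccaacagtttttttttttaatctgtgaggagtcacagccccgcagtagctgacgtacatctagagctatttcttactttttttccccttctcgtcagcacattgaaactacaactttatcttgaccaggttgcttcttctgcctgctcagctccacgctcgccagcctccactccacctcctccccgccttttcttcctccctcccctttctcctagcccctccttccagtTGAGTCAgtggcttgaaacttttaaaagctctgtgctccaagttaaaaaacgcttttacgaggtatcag
Cav1: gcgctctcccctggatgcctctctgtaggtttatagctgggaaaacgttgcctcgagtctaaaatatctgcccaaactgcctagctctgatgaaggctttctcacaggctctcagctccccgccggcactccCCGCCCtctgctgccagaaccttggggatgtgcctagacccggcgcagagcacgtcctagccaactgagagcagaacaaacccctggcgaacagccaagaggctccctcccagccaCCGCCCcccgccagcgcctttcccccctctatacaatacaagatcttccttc
Jup: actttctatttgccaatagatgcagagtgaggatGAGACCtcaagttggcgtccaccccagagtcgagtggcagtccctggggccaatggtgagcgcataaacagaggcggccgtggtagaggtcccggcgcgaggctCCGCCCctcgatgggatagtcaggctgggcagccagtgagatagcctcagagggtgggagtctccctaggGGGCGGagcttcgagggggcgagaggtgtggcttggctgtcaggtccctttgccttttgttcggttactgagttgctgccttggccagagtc
F11r: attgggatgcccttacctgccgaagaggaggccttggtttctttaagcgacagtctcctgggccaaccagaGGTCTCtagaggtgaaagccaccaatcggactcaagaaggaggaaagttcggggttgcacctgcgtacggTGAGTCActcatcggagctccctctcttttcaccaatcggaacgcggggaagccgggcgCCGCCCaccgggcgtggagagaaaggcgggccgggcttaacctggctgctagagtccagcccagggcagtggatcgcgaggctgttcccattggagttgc
The Gja1 window held 1 AP-1 match, 19 bases before the start, and no other match. F11r held an AP-1 match 109 bases before the start, a GAGACC match on the opposite strand and 1 GC box. Jup held 1 GAGACC match and 2 GC boxes. The Cav1 window held 2 GC boxes and neither of the flow-related motifs, and a second annotated Cav1 start, at chr6:17307390-17307689, held no match to any of the motifs searched. Of 32851 windows of the same length, 16.4% held GAGACC, 7.81% the AP-1 motif, 35.7% the GC box, 14.7% the TEAD motif and 1.79% the cyclic AMP motif. No motif was shared by all 4 genes, and the matches are letters in a window and not shown sites.

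Signals are log2 values in which 0 is the median of a block of features on the array, so each value is relative to its own sample and an equal change of every transcript would leave no trace. Levels of different probes are not comparable. The array taken to hold control replicates 3 and 4 had the fewest measured features, with a value for 72.9% and 64.2% of them, against 76.1% to 82.9% in the other samples. Its signal was not the lowest, with a median net fluorescence of 485 and 293 units, since shear replicates 2 and 5 had 245 and 243 units. Of 17 osteoblast markers, 5 could be tested. Sparc, a matrix protein of osteoblasts, averaged 5.60 in shear and 5.48 in control samples on its brighter probe, and the collagen gene Col1a2 averaged 4.45 and 4.40. Col1a1 lay at 1.40 in shear and 1.65 in control samples, and the phosphatase Alpl at -0.95 and -1.01. Dlx5, an osteoblast homeobox factor, was lower under shear (log2 change -0.97 ± 0.23 SE, n = 6 per group, limma adjusted p = 0.0479). It ranked 342 by p among the 354 called probes, near the threshold, and was not followed under the alternative settings described below. Of the 17 osteoblast markers, 7 had a probe with a single gene symbol in the annotation used, and markers such as Runx2, Sp7 and Bglap had none. Of 10 epithelial markers 7 were tested, of 10 endothelial markers 6, of 10 macrophage and osteoclast markers 4, of 10 muscle markers 4, of 9 adipocyte markers 4 and of 8 chondrocyte markers 4, and none of these passed. On 1 probe per gene, 160 of all 8928 tested genes passed (1.79%). The lack of a call in lists this short therefore says little about them. Mean levels could be taken only over the markers with all 12 values. That of 6 epithelial markers ran from -1.03 to -0.23 in shear and from -1.24 to -0.35 in control samples, and that of 4 endothelial markers from -0.12 to 0.32 in shear and from -0.34 to 0.46 in control samples. That of 3 macrophage and osteoclast markers ran from 0.22 to 1.19 in shear and from 0.0073 to 0.95 in control samples. Muscle (2 markers), adipocyte (3) and chondrocyte markers (4) ranged over -1.31 to 0.47, -0.94 to -0.18 and 0.42 to 0.86 in shear samples, and over -0.78 to 0.30, -0.91 to -0.64 and -0.26 to 0.88 in control samples. Their part in the results below was not tested.

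Of the 5 genes, Cav1 gave the single call. Its probe 27686 was 3.02-fold higher under shear, while the 2 other Cav1 probes were 1.22-fold and 1.48-fold higher and did not pass. Gja1 lay at 0.96-fold. The Cdh2 probes ran from 0.59-fold to 1.22-fold, and Jup and F11r lay between 1.13-fold and 1.23-fold, none of which passed. In a bulk sample fewer cells of a type and less RNA per cell cannot be told apart.

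In all, 12 of the 13 probes had 4 or more values in both groups of 6 and were tested with limma, in a fit of group and dye that took the array as a random effect. Of these, 1 was called at adjusted p under 0.05 (Benjamini-Hochberg over 21883 probes), against 1.62% of all probes tested (1.42% higher and 0.201% lower under shear). Of all 354 calls, 87.6% were higher under shear, against 67.5% of 406 calls when each sample was centred on the 17080 features that have all 12 values. A change above 0 was found for 10 of the 12 probes and for 60.0% of all probes. The median change of all probes was 0.10 on the log2 scale, and 7 of the 12 lay above it. With the centring just named that median was -0.02, so changes of about 0.1 have no settled sign here.

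**Figure D1:**
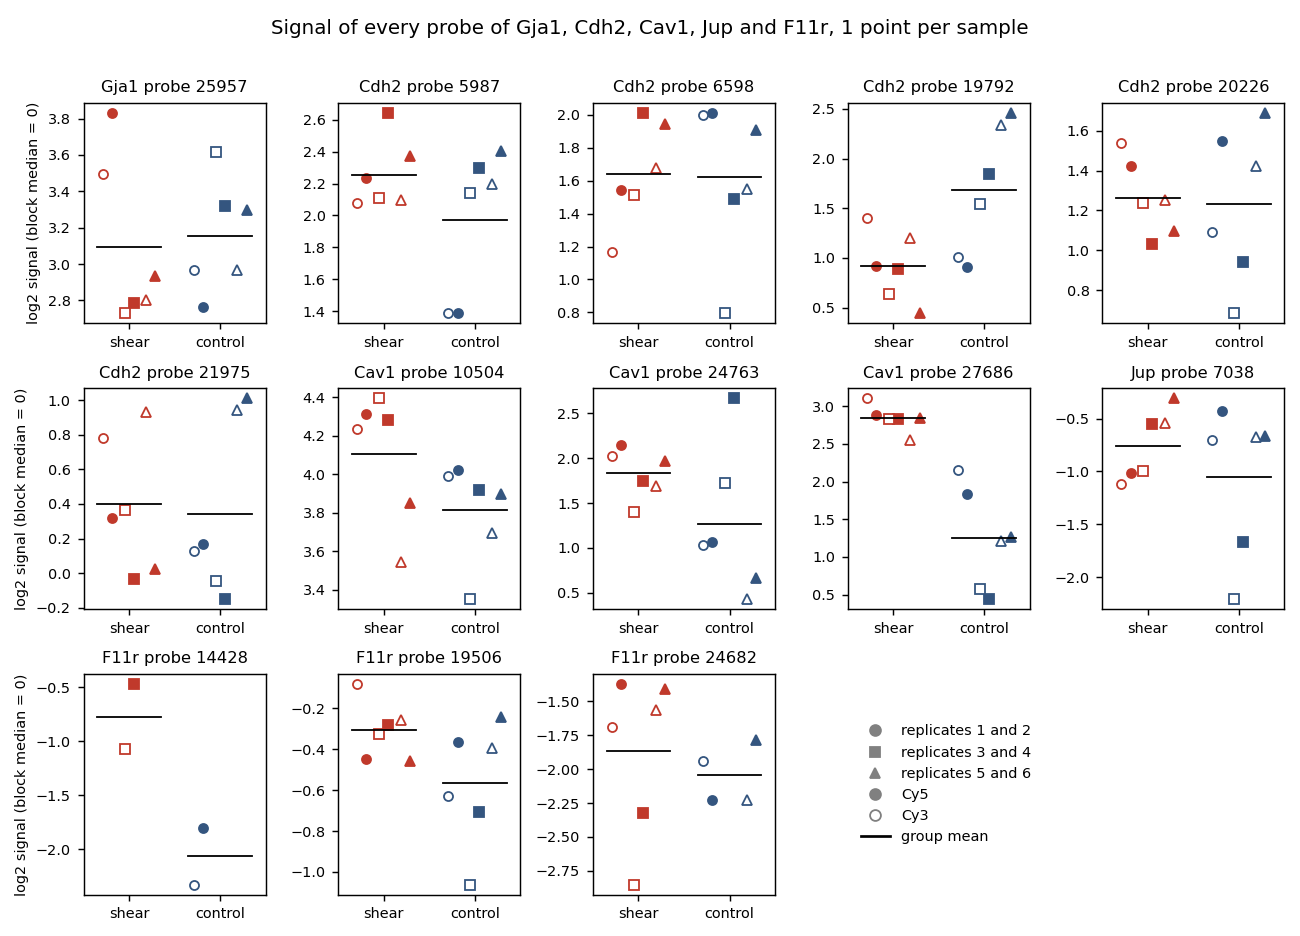
Log2 signal of each of the 13 probes, 1 point per sample, with shear left of control and each panel on its own vertical scale. Circles, squares and triangles are the samples of 1 array, filled for Cy5 and open for Cy3, and lines are group means. Only Cav1 probe 27686 separates the groups among the probes with 12 values, while F11r probe 14428 has 2 values per group.

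Cav1 (gene at chr6:17306335-17341328) had 3 tested probes, all with changes above 0. Probe 27686 ranged from 2.55 through a median of 2.84 to 3.11 in the 6 shear samples, and from 0.44 through 1.24 to 2.15 in the 6 control samples. All 6 shear samples lay above all 6 control samples. This was so for 1 of the 11 probes of the set with 12 values, against 7.69% of all such probes in either direction and 6.52% in this one. The log2 change was 1.60 ± 0.32 (SE, n = 6 per group, limma adjusted p = 0.0248), with a 95% interval of 0.91 to 2.28. Among all probes tested it ranked 164 by p.

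Cav1 probe 27686 varied more among control than among shear samples, with an SD of 0.18 in shear and 0.67 in control. Its array averages were 2.70 or more on all 3 shear arrays and 1.99, 0.51 and 1.24 on the control arrays. The lowest control array was that of replicates 3 and 4, with the fewest measured features, and without it the change was 1.23 ± 0.29 (limma adjusted p = 0.0688). Before the authors' scaling the net fluorescence of the probe was 1480 to 7020 units in shear samples and 306 to 1716 units in control samples, so the unscaled ranges overlapped. With 3 arrays per group, the exact two-sided permutation test over array means gave p = 0.1, the smallest value it can give.

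The call of Cav1 probe 27686 rests on counting 12 samples. With each array averaged the change was the same 1.60, with limma adjusted p = 0.108, and leaving out 1 array ended the call in 5 of 6 cases (adjusted p 0.0688 to 0.123). Leaving out any single sample kept it, at adjusted p of 0.0203 to 0.0496 (limma). Across the 31 alternatives with a value the change stayed above 0, from 1.23 to 1.97.

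The second, Cav1 probe 24763, ranged from 1.40 through 1.86 to 2.15 in shear samples and from 0.43 through 1.05 to 2.67 in control samples. Its groups overlapped in control replicate 3 at 2.67 and replicate 4 at 1.72, the array on which probe 27686 was lowest. The change was 0.57 ± 0.38 (SE, n = 6 per group, limma adjusted p = 0.534). Without control replicates 3 and 4 it was 1.04 (limma adjusted p = 0.0712), and without control replicates 5 and 6 it was 0.21.

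Probe 10504 of Cav1 was far above its block median in every sample, from 3.55 through 4.26 to 4.39 under shear and from 3.35 through 3.91 to 4.02 in control. In 4 shear samples it lay above the highest control sample. Shear replicates 5 and 6, at 3.85 and 3.55, lay within the control range. The change was 0.29 ± 0.26 (SE, n = 6 per group, limma adjusted p = 0.665). Its 95% interval, before adjustment, was -0.27 to 0.85, and the 1.60 of probe 27686 lay outside it. The difference between these probes did not pass when tested directly (limma adjusted p = 0.282).

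**Figure D2:**
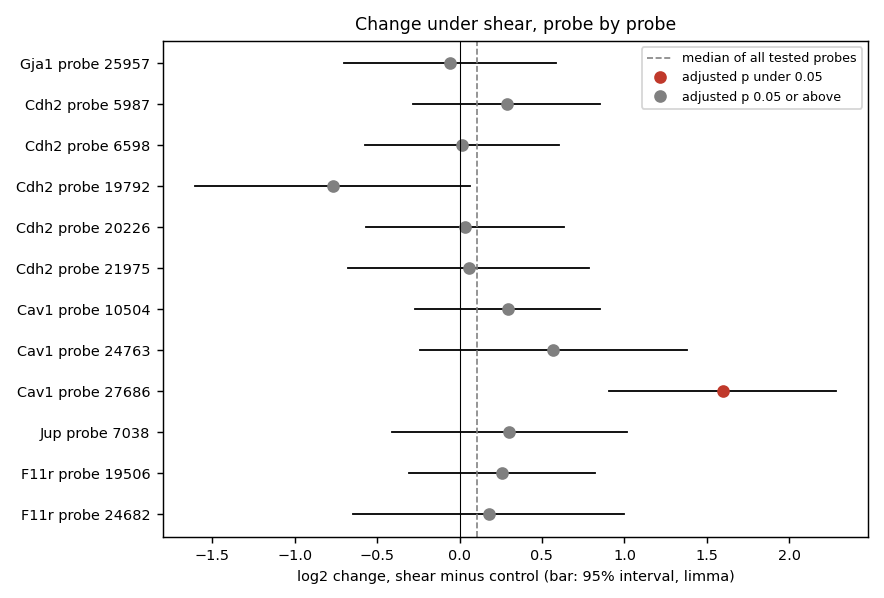
Log2 change, shear minus control, of the 12 tested probes with 95% intervals from limma. The dashed line is the median of all 21883 tested probes (0.10). Cav1 probe 27686 at 1.60 is the single call, and Cdh2 probe 19792 at -0.77 is the lowest value.

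Gja1, which encodes connexin43, lay well above its block median in all samples. Gja1 probe 25957 (gene at chr10:56377300-56390419) had log2 signals of 3.83, 3.49, 2.78, 2.73, 2.93 and 2.80 in shear replicates 1 to 6. The control replicates 1 to 6 had 2.76, 2.97, 3.32, 3.62, 3.30 and 2.97. The groups overlapped widely. Shear replicates 1 and 2, on the same array, stood above the other shear samples, and control replicate 4 was the highest control sample. The means were 3.10 ± 0.46 in shear and 3.15 ± 0.31 in control samples (SD, n = 6 each). The log2 change was -0.06 ± 0.30 (SE, limma adjusted p = 0.956), and its 95% interval was -0.70 to 0.58. Without shear replicates 1 and 2 the change was -0.34, and without control replicates 3 and 4 it was 0.096, so its sign is not settled.

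Cdh2, which encodes N-cadherin (gene at chr18:16588877-16809246), was the gene with most probes, and 4 of its 5 probes gave changes between 0.02 and 0.29. Cdh2 probe 5987 ranged from 2.08 through 2.17 to 2.64 in shear samples and from 1.39 through 2.17 to 2.41 in control samples. The medians were alike, and the lower control mean came from control replicates 1 and 2, both at 1.39. Its change was 0.29 ± 0.26 (SE, n = 6 per group, limma adjusted p = 0.676), and without those replicates it was -0.0056. Cdh2 probe 6598, Cdh2 probe 20226 and Cdh2 probe 21975 gave changes of 0.02, 0.03 and 0.06 with SE of 0.28 to 0.34. All of these turned negative when the centring used features with all 12 values (-0.12, -0.10 and -0.081).

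The remaining one, Cdh2 probe 19792, had a change below 0. It ranged from 0.44 through 0.90 to 1.41 in shear samples and from 0.90 through 1.69 to 2.46 in control samples. The groups overlapped in control replicates 1 and 2, at 0.90 and 1.01, while the 4 other control samples lay above all shear samples. The log2 change was -0.77 ± 0.39 (SE, n = 6 per group, limma adjusted p = 0.392). The control array means were 0.96, 1.69 and 2.40, a wider range than the shear array means of 1.16, 0.76 and 0.82. Without control replicates 5 and 6 the change was -0.41, and without control replicates 1 and 2 it was -1.13. Probe 20226 of Cdh2 lies in the same block of the array, block 34, and gave 0.03.

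Jup, the plakoglobin gene (chr11:100368856-100397839), was measured below its block median in every sample. Jup probe 7038 ranged from -1.12 through -0.78 to -0.31 in shear samples and from -2.21 through -0.69 to -0.43 in control samples. The control samples at the bottom were replicates 3 and 4, at -1.67 and -2.21, on the array with the fewest measured features. The change was 0.30 ± 0.33 (SE, n = 6 per group, limma adjusted p = 0.740), and it was -0.14 without these 2 samples. In net fluorescence the probe gave 105 to 593 units in shear and 58 to 467 units in control samples.

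F11r, which encodes junctional adhesion molecule A (chr1:171437561-171464593), lay below its block median in every value. Probe 19506 ranged from -0.46 through -0.30 to -0.08 in shear samples and from -1.06 through -0.51 to -0.24 in control samples, with a change of 0.26 ± 0.26 (SE, n = 6 per group, limma adjusted p = 0.713). Control replicates 3 and 4, at -0.71 and -1.06, were again the lowest. Probe 24682 had values in 6 shear and 4 control samples, none of them from control replicates 3 and 4. It lay at -1.87 ± 0.59 in shear and -2.05 ± 0.22 in control samples (SD), and its change of 0.18 ± 0.38 (SE) did not pass. Probe 14428 had values in only 2 samples of each group, 1 array each, so it was not tested. Those were -0.47 and -1.07 in shear replicates 3 and 4 and -1.81 and -2.33 in control replicates 1 and 2. In net fluorescence probe 24682 gave 75 to 322 units in shear and 72 to 148 units in control samples.

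Between the 2 samples of an array, which carried different dyes, the 12 tested probes differed by a median of 0.16 to 0.37 on the log2 scale, against 0.25 over all probes with 12 values. Probes 6598 of Cdh2, 24763 of Cav1 and 7038 of Jup were brighter in Cy5 on all 6 arrays. Differences between arrays of the same group were often larger, as in the control array means of Cav1 probe 27686 (0.51 to 1.99) and of Cdh2 probe 19792 (0.96 to 2.40).

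Whether probes of the same gene disagreed was tested on their difference within each sample, over 9179 pairs of probes of 4022 genes. None of the 14 pairs of these genes passed, and none of all pairs did, so the percentage called was 0 (limma, Benjamini-Hochberg, lowest adjusted p of any pair 0.0535). At unadjusted p under 0.05 it was 3 of the 14 pairs, against 8.67% of all pairs. Of the 13 pairs with 12 values, 2 had groups that did not overlap, against 4.39% of all such pairs. Pairs of a gene share probes and are not independent. Every pair in these counts holds Cav1 probe 27686 or Cdh2 probe 19792, so they show no general excess of disagreement in these genes.

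The largest disagreement was between Cav1 probes 10504 and 27686. Probe 10504 exceeded probe 27686 by 1.00 to 1.56 in shear samples and by 1.84 to 3.48 in control samples, on the log2 scale. The changes of the 2 probes differed by -1.31 ± 0.36 (SE, n = 6 per group, limma adjusted p = 0.282), a difference larger than that of 96.2% of all pairs. The exact two-sided permutation test over samples gave p = 0.00216, the smallest value its 924 splits allow, but it counts samples of the same array separately. Without the array block this pair passed (limma adjusted p = 0.0165), as did 3.83% of all pairs.

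Among the Cdh2 probes the pairs with probe 19792 stood out. Probe 5987 exceeded probe 19792 by 0.67 to 1.93 in shear samples and by -0.14 to 0.60 in control samples, so these groups did not overlap either. The changes differed by 1.06 ± 0.41 (SE, n = 6 per group, limma adjusted p = 0.490), and without the array block this pair passed too (adjusted p = 0.0271). The 3 other pairs with probe 19792 differed by 0.79, -0.80 and -0.82, and the 6 pairs without it by at most 0.27 in size. For F11r the 2 tested probes differed by -0.08 ± 0.51 (SE), with a wide error.

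**Figure D3:**
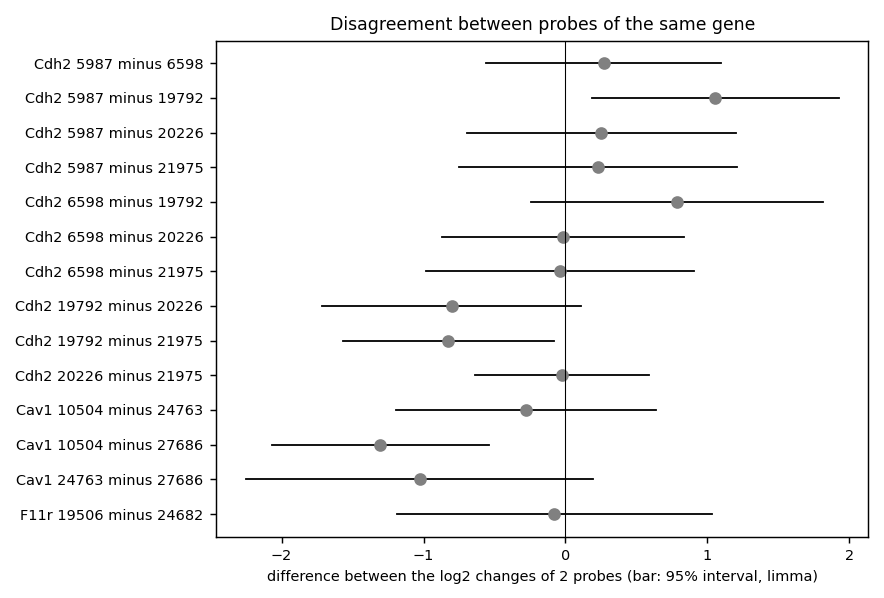
Difference between the log2 changes of 2 probes of the same gene, first named minus second, with 95% intervals from limma before adjustment for the number of pairs. The intervals of 3 of the 14 pairs leave out 0, all with Cav1 probe 27686 or Cdh2 probe 19792, and none of the 14 passed after adjustment.

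**Figure D4:**
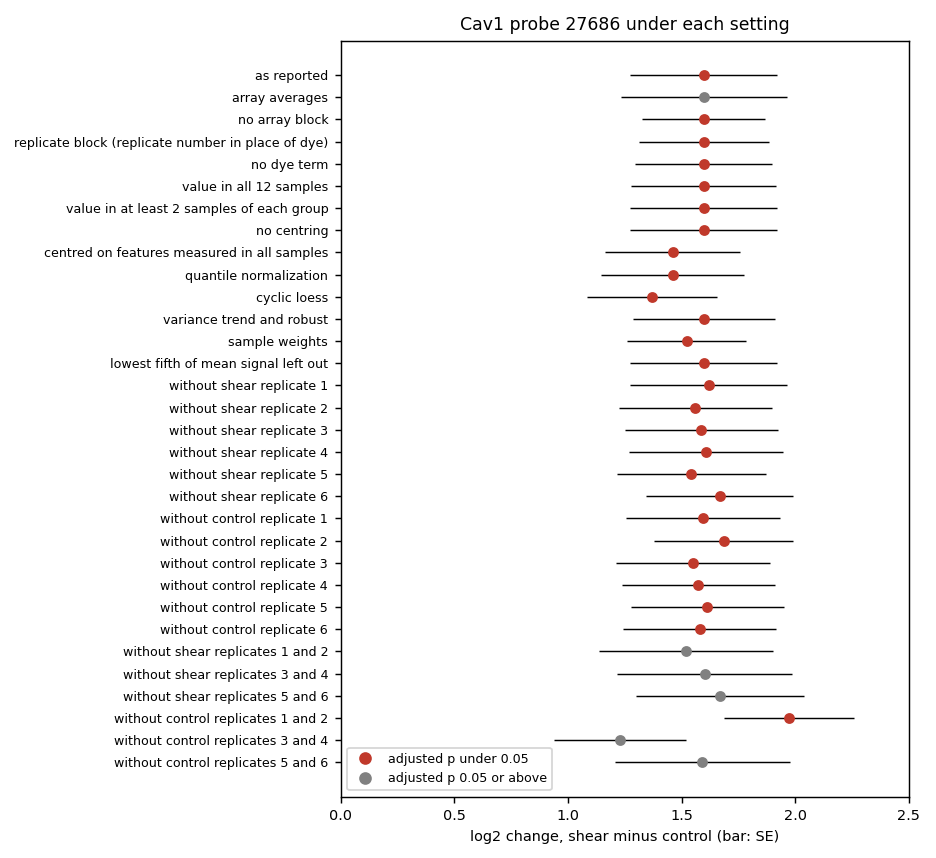
Log2 change of Cav1 probe 27686, shear minus control, with its SE, as reported and under each of 31 alternative settings. The value stays between 1.23 and 1.97. Grey points mark the 6 settings in which adjusted p was 0.05 or above, 5 of which leave out an array and 1 of which averages each array.

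The other genes of these structures were followed on 1 probe per gene, on which 160 of 8928 genes passed (1.79%) with a median log2 change of 0.11. Of 23 connexin and pannexin channel genes, 4 were tested and none passed. Gjb5, a connexin of epithelia, gave a change of 0.55 ± 0.25 (SE), the pannexin Panx1 0.12, the connexin Gjc1 0.02 and Gja1 -0.06, and their median was 0.07. For Panx1 probe 28262 the sign turned without the array block (-0.086) and with the centring on features with all 12 values (-0.0041).

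Of 20 gap junction partners, such as kinases and scaffold proteins that bind or modify connexins, 11 were tested and none passed, with a median of 0.31. Changes above 0 were found for 9 of the 11. The smallest p values were those of the kinases Prkcd (0.99 ± 0.25 SE) and Src (0.45) and of the actin-binding drebrin gene Dbn1 (0.40). Of the 4 Prkcd probes, the chosen probe 9894 and probes 16945 and 26233 gave changes of 0.99 to 1.18, and probe 11653 gave a lower one. No difference between them passed in the test of pairs above. Probe 16945 rose by 1.06 ± 0.24 (SE, limma adjusted p = 0.0425), a call lost in 18 of 31 alternatives, while Prkcd probe 26233 gave 1.18 ± 0.33 (SE) and probe 11653 gave -0.03 ± 0.39 (SE), and neither passed.

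Of 30 adherens junction genes, 21 were tested and none passed in either direction, with a median of 0.18. Vcl, which encodes the actin linker vinculin, gave 1.33 ± 0.32 (SE, n = 6 per group, limma adjusted p = 0.0569) on its chosen probe. Its probe 12862 rose by 1.62 ± 0.31 (SE, n = 6 per group, limma adjusted p = 0.0192), a call lost in 5 of 31 alternatives. The third Vcl probe, 16437, gave 0.36 ± 0.31 (SE, n = 6 per group, limma adjusted p = 0.648). On the chosen probes the scaffold gene Iqgap1 gave 0.76 and the epithelial cadherin gene Cdh1 -0.67, and neither passed. Cdh1 thus lay on the other side of 0 from the chosen Cdh2 probe, 5987, whose own change was -0.0056 without control replicates 1 and 2. Of the Cdh2 probes only 19792, at -0.77, lay on the same side as Cdh1. The difference between these genes was not tested.

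Of 18 desmosome genes 10 were tested, none passed, and the median was 0.38, with Ppl (periplakin) at 0.48 on its chosen probe and 0.098 on its other, Pkp2 (plakophilin) at 0.53 and the keratin Krt8 at 0.57. Changes above 0 were found for 7 of the 10, while Pkp3 (-0.26), Dsc2 (-0.21) and Dsg2 (-0.03) lay below 0. Of 41 tight junction genes 21 were tested and none passed, with a median of 0.28. Of the 21, 15 lay above 0, and the lowest was Prkci at -1.23. The claudin Cldn12 gave 0.85, Ybx3, a transcription regulator that binds the tight junction scaffold, 0.90 and the adhesion receptor Cxadr 0.54. The 2 other Cxadr probes lay below 0, at -0.18 and -0.36. Of 16 caveola genes 9 were tested and none passed on the chosen probe, with a median of 0.03 and 5 of the 9 above 0. Pacsin2 and Pacsin3, which help to bend the membrane, gave 0.85 and 0.46, and Ehd4 gave 0.50. The other Pacsin2 probe had the opposite sign, at -0.28 ± 0.39 (SE), and the 2 other Ehd4 probes gave 0.02 and 0.49. On every probe of the caveola genes, 1 of 19 passed, against 1.62% of all probes tested. That was Cav1 probe 27686, the call already given above, which was lost in 6 of 31 alternatives.

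**Figure D5:**
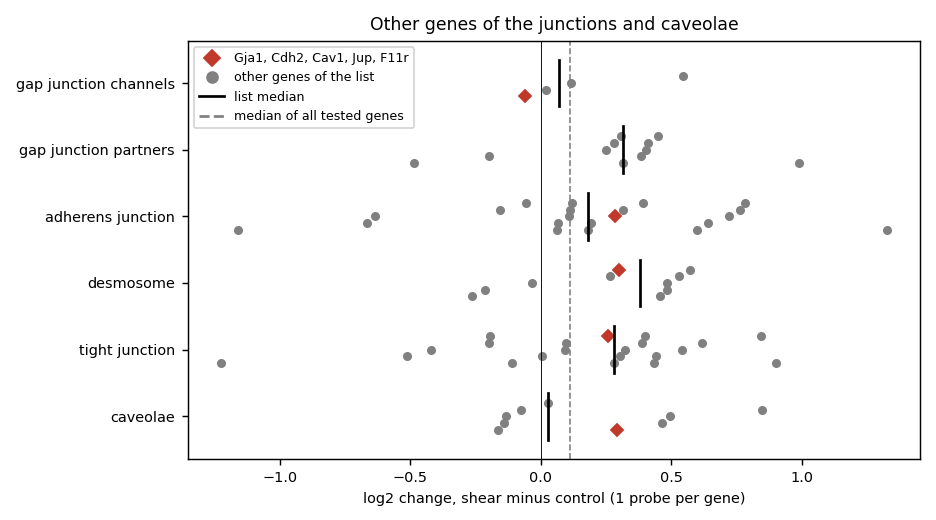
Log2 change, shear minus control, of the tested genes of 6 lists on 1 probe per gene, with diamonds for Gja1, Cdh2, Cav1, Jup and F11r. Black bars are list medians, from 0.03 for caveolae to 0.38 for desmosomes, and the dashed line is the median of all tested genes (0.11). No gene shown passed.

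Profiles across the 12 samples were compared by the root mean square difference of centred log2 values, among named probes with 12 values. The genes most like Gja1 were Pfn2 (0.19), a profilin, and Txn1 (0.21), the thioredoxin gene, with Gja1 itself varying by 0.36 around its mean. Those most like Cdh2 probe 5987 were Srek1ip1 (0.13) and Phospho2 (0.14), against a variation of 0.36. Pcyt1a and Sec13 were nearest to Cav1 probe 10504 (0.14 each, against 0.31), Smo and Cnot6 to Jup (0.16 and 0.17, against 0.53), and Ern1 and Stim2 to F11r probe 19506 (0.12 each, against 0.25). Samples of an array share its effects, and these likenesses are descriptions over 12 samples on 6 arrays.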

How the data were processed

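Total RNA of 12 samples was copied into cDNA labelled with Cy5 (odd replicates) or Cy3 (even replicates), and 2 samples of the same condition were co-hybridized on each of 6 arrays, per the labels and the series design. Each odd replicate was paired with the next even one of its group as 1 array, inferred from the dyes and the design. Such pairs had Pearson correlations across features of 0.953 to 0.982, and the other same-group pairs of 0.871 to 0.935. The deposited log2 values were made by the authors. From the values, each equals the log2 ratio of a whole net fluorescence to the median of its block (48 blocks), within 0.002 for 100% of values. The background correction and the rule for empty values were not given in the sources used here. Between 18434 and 23790 features had a value per sample. The number of arrays limits the precision.

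Symbols were updated through the Entrez number. Values were centred on each sample's median. Probes with 4 or more values in both groups were tested with limma 3.58.1 in R 4.3.3 (duplicateCorrelation, within-array correlation 0.727, then eBayes), with Benjamini-Hochberg adjustment over 21883 probes and a threshold of 0.05. Each array holds 1 group, so p-values that count samples can be too small. Differences between probes were fitted the same way over 9179 pairs from genes with 2 to 6 measured probes. Figures used Python 3.11.15 and matplotlib 3.10.9. All probes of the 5 genes are given, with the 3 genes of smallest p of each list and the 2 nearest profiles of each member. Other called probes of list genes were named after their values were seen. The members and lists were chosen with earlier results of these data known.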

Additional observations from a re-analysis of the deposited data

How the results depend on the processing

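Alternatives covered the array block, dye, filter, scaling, normalization, weights and left-out samples or arrays. The number of called probes among the 12 stayed at 1 in 25 of 32 alternatives and was 0 with each array averaged and with 1 probe per gene, which leaves the called Cav1 probe out. Over left-out samples and arrays it ran from 0 to 1. Over all probes, 354 calls became 106 with array averages, 2664 without the array block, 163 with the replicate block, 558 without the dye term, 235 with quantile normalization, 1350 with sample weights and 75 to 368 with samples or arrays left out. Same-numbered samples shared only a number, with correlations of -0.09 to 0.12 between their deviations and 1 of 6 shear samples closest to its own number. With the replicate block in place of dye, Cav1 probe 27686 kept its call (limma adjusted p = 0.0324).

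Called pairs of probes of these genes numbered 2 without the array block and 4 by the exact permutation at unadjusted p under 0.05, and 0 in the other alternatives. Of 1251 values of single probes, pairs or profile likenesses under alternatives, 29 lost a call, 25 gained one and 57 changed sign. The gains include the 4 pairs of the exact permutation, which is unadjusted and counts samples of the same array separately. The other 1140 were counted as the same, in direction and side of the threshold for probes and pairs. They include all the profile likenesses, which have no direction or threshold. Centred on shared features, Cdh2 probe 6598, Cdh2 probe 20226 and Cdh2 probe 21975 gave -0.12, -0.10 and -0.081 and Panx1 probe 28262 -0.0041. Quantile normalization gave -0.12 and -0.077 for Cdh2 probes 6598 and 20226. Cyclic loess gave -0.19, -0.16 and -0.082 and sample weights -0.061, -0.17 and -0.29 for the 3 Cdh2 probes. Panx1 was at -0.16 with sample weights and -0.086 without the array block. With samples or arrays left out, changes ran from -0.34 to 0.11 for Gja1, from -0.0056 to 0.45, -0.22 to 0.21, -0.18 to 0.20 and -0.16 to 0.37 for Cdh2 probes 5987, 6598, 20226 and 21975, from -0.14 to 0.55 for Jup, from -0.012 to 0.54 for F11r probe 24682 and from -0.46 to 0.46 for Panx1. Differences between probes ran from -0.14 to 0.13 (6598 minus 20226), -0.14 to 0.11 (6598 minus 21975), -0.084 to 0.052 (20226 minus 21975) and -0.16 to 0.014 (F11r 19506 minus 24682). The cause of these turns was not tested.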
